A study of Mus musculus with 12 samples.

Results

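NF-κB is a family of dimeric transcription factors that carries the signal of Toll-like receptors to inflammatory genes. In resting macrophages the dimers are held in the cytoplasm by inhibitor (IκB) proteins. A receptor signal leads the IκB kinase to mark the inhibitors for destruction, and the freed dimers then switch on many genes, among them those of their own subunits and inhibitors. The 10 genes described here encode the 5 subunits (Rela, Relb, Rel, Nfkb1 and Nfkb2), the 3 classical inhibitors (Nfkbia, Nfkbib and Nfkbie) and 2 atypical, nuclear IκB proteins (Nfkbiz and Bcl3). They were taken by gene symbol from the 38215 genes of the count table, together with the 168 of 354841 exon bins (exon pieces counted separately) that belong to them.

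The cells were RAW264.7 macrophages, an established mouse line of BALB/c origin. They received either a nontargeting control siRNA or an siRNA against SF3a1, a subunit of the SF3a complex of the U2 snRNP, which takes part in 3′ splice site recognition. At 24 h after transfection, cells of both kinds were left without LPS or exposed for 4 h to 20 ng/ml LPS, the bacterial lipopolysaccharide that activates the receptor TLR4. Each siRNA was thus studied with and without LPS, which gave 4 groups of 3 polyadenylated RNA libraries. The comparisons asked how LPS and SF3a1 inhibition, alone and together, changed the mRNA of these genes. Per the study's methods, siRNA treatments and LPS exposures were done in triplicate, so replicates are separate treatments of a single cell line. The p-values measure the spread between the libraries of a group. With no block in the main fit, this spread also holds any difference between replicate numbers that the groups share.

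Gene counts per library ran from 12746019 to 41091887. Levels are given below as CPM, the count of a gene relative to its library's total gene count after TMM scaling. Replicate 1 of each group was sequenced in 2 runs and replicates 2 and 3 in 1 run each, and replicate 1 stood apart: across genes, its deviations from the group mean correlated between -0.523 and -0.169 with those of the other replicate numbers in other groups. In libraries without LPS, 20.83% to 27.2% of reads fell in no annotated gene with SF3a1 siRNA, against 17.85% to 19.63% with control siRNA; the part of this in the results was not tested. Of 9 macrophage marker genes, 8 averaged at least 1 CPM (Lyz2 the most abundant, at 6684.6 CPM) and Mrc1 did not; their summed level was 9739.9 to 11098.3 CPM in control siRNA without LPS and higher, at 12274.9 to 16354.0 CPM, in every library of the other 3 groups, and the part of this in the results was not tested. Single macrophage markers moved in both directions. With control siRNA, Csf1r averaged 2933.7 CPM without LPS and 1424.1 CPM with LPS, while Cd14 averaged 542.5 and 2765.9 CPM. The summed markers of B cells, T cells, fibroblasts and epithelial cells (3 genes each) stayed at or below 0.362 CPM in every library.

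Sf3a1 itself was measured at 172.8, 215.8 and 185.2 CPM with control siRNA, and at 27.1, 27.5 and 32.1 CPM with SF3a1 siRNA. With LPS the values were 149.9, 194.3 and 156.9 CPM against 30.3, 26.7 and 45 CPM. The groups did not overlap. The siRNA left 15.1% of the control level without LPS (log2 fold change -2.73 ± 0.204 SE, adjusted p = 1.14e-05) and 20.4% with LPS (-2.30 ± 0.20, adjusted p = 1.47e-05). Here and below, log2 fold changes at the gene level come from edgeR's quasi-likelihood test over 14983 genes with Benjamini-Hochberg adjustment, and a gene was called at an adjusted p of at most 0.1. All 10 members passed the filter on low counts.

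The members lie on several mouse chromosomes (mm10, GENCODE). The subunit genes are Rela (chr19:5637483-5648130), Nfkb2 (chr19:46304320-46312385), Nfkb1 (chr3:135584655-135691547), Relb (chr7:19606217-19629438) and Rel (chr11:23736847-23770970). The classical inhibitor genes are Nfkbia (chr12:55489410-55492647), Nfkbib (chr7:28758251-28767512) and Nfkbie (chr17:45555703-45563169). Nfkbiz (chr16:55811375-55838899) and Bcl3 (chr7:19808462-19822770) complete the set.

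NF-κB dimers bind a DNA element called the κB site. Upstream stretches that match its consensus motif are shown because genes of the subunits and inhibitors are among the known targets of the dimers. In the 250 bases before each RefSeq transcript start (GRCm38.p6), 4 of the 7 members with an entry (all but Nfkb1, Relb and Nfkbiz) held at least 1 match on either strand (Nfkb2, Nfkbia, Nfkbie and Rel), and Rela, Nfkbib and Bcl3 held none. Counted by window, 6 of the 9 windows of these 7 members held a match, beside 3.9% of all 32851 windows. A match is a description of letters and not evidence of binding. One 30-base stretch is shown for each of the 4 genes, read on the gene's own strand, with the matched bases in capitals (in Nfkb2 and Rel, 2 matches on opposite strands overlap).
Nfkb2, chr19:46304688-46304717, plus strand: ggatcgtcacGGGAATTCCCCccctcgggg
Nfkbia, chr12:55492657-55492686, minus strand: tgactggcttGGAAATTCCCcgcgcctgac
Nfkbie, chr17:45555584-45555613, plus strand: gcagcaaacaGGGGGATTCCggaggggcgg
Rel, chr11:23771042-23771071, minus strand: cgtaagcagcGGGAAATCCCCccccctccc
The first matched base lay 39 bases upstream of the start in Nfkb2, 29 in Nfkbia, 106 in Nfkbie and 92 in Rel.

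The members covered a wide range of abundance. Because their exonic lengths run from 1.61 kb (Nfkbia) to 12.1 kb (Nfkb1), levels were compared between genes only as CPM per kb of exon. With control siRNA and no LPS, Nfkbia, the gene of IκBα, was highest at 56.3 ± 6.35 CPM per kb (SD, n = 3), followed by Rela at 24.9 ± 2.31 and Nfkb1 at 19.4 ± 1.68. The libraries of neighbours in this order did not overlap down to Nfkb1, whereas Nfkb1 and Nfkb2 (15.5 ± 2.70) overlapped, as did Nfkb2 and Nfkbib (14.0 ± 0.718). At the low end stood Rel at 1.86 ± 0.190 and Nfkbiz at 1.37 ± 0.185 CPM per kb. LPS rearranged this order: with control siRNA, Nfkbiz was the fifth by mean at 49.7 ± 6.40, above Rela at 22.2 ± 6.39 CPM per kb. The Nfkbiz libraries (43.1 to 55.8) overlapped those of Nfkbib, Nfkbie and Bcl3, but not those of Rela (16.7 to 29.2). In cells with SF3a1 siRNA and LPS, Nfkbiz was the eighth at 12.1 ± 2.29, below Rela at 25.0 ± 1.97 CPM per kb.

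**Figure D1:**
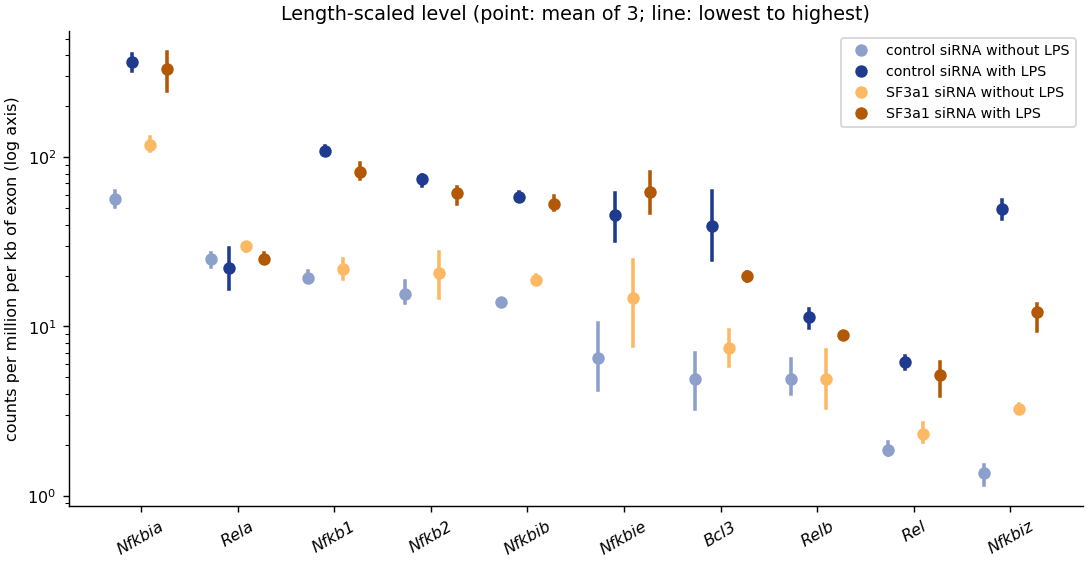
CPM per kb of exon on a log axis for each gene, ordered by its level with control siRNA and no LPS; points are means of 3 libraries and lines run from the lowest to the highest library. Nfkbiz moves from the lowest mean of the 10 genes without LPS (1.37) to 49.7 with LPS and control siRNA, and reaches 12.1 with LPS and SF3a1 siRNA.

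LPS raised 9 of the 10 members in cells with control siRNA, in a comparison where 13.8% of all genes tested were called higher. Rela was the exception. The median log2 fold change of the members was 2.37, beside -0.02 over all genes. A level per library cannot tell apart more mRNA per cell from more cells that express the gene.

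Among the subunits, Rela encodes p65, which carries the main activation domain of the canonical p65/p50 dimer. Rela was measured at 83.4, 76.8 and 69.2 CPM without LPS and at 89.8, 63.3 and 51.4 CPM with LPS. The groups overlapped, and the log2 fold change was -0.16 ± 0.181 (adjusted p = 0.59). Without replicate 1 of control siRNA with LPS it was -0.42 and was called (adjusted p = 0.0654).

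Nfkb1 and Nfkb2 encode the precursors p105 and p100, which are processed to the DNA-binding subunits p50 and p52 and also act as inhibitors while unprocessed. Nfkb1 rose from 257.6, 222.2 and 222.9 CPM to 1243.9, 1267.6 and 1406.5 CPM, a log2 fold change of 2.48 ± 0.149 (adjusted p = 1.40e-07). Nfkb2 rose from 85.2, 64.6 and 63.0 CPM to 358.6, 311.6 and 346.4 CPM (2.26 ± 0.216, adjusted p = 7.09e-06). In both genes every library with LPS lay above every library without it.

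Rel encodes c-Rel, a subunit prominent in blood cells, and Relb the partner of p52 in the noncanonical pathway. Rel rose from 13, 15.5 and 13.1 CPM to 41.8, 47.1 and 49.7 CPM (1.73 ± 0.190, adjusted p = 2.26e-05). Relb rose from 25.0, 16.3 and 15.4 CPM to 49.4, 38.0 and 45.4 CPM (1.22 ± 0.269, adjusted p = 0.0043), the smallest change among the 9 called members. Replicate 1 was the highest Relb library in both groups.

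The classical inhibitors rose by 4.19-fold to 6.97-fold. Nfkbia, the inhibitor that is degraded and remade quickest, went from 101.6, 89.0 and 81.4 CPM to 522.9, 589.9 and 655.2 CPM (2.70 ± 0.196, adjusted p = 6.63e-07). Nfkbib, the gene of IκBβ, went from 30.7, 31.7 and 28.6 CPM to 134.8, 120.3 and 125.7 CPM (2.07 ± 0.128, adjusted p = 1.84e-07). Nfkbie, the gene of IκBε, went from 31.8, 12.9 and 14.7 CPM to 187.9, 97.9 and 130.0 CPM (2.80 ± 0.459, adjusted p = 0.000589). The groups did not overlap in Nfkbia, Nfkbib or Nfkbie, and the share of all genes that separate in this way is not given here. The Nfkbie level of replicate 1 lay well above those of replicates 2 and 3 in both groups.

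The atypical proteins act in the nucleus: IκBζ (Nfkbiz) is made after stimulation and is needed for a secondary set of inflammatory genes such as Il6, and Bcl3 binds p50 and p52 homodimers. Nfkbiz rose from 7.10, 7.64 and 5.83 CPM to 216.1, 280.3 and 251.4 CPM. This 36.3-fold increase (log2 5.18 ± 0.20, adjusted p = 7.04e-09) was the largest of the 10 members. Bcl3 rose from 17.2, 11.3 and 8.04 CPM to 157.3, 73.9 and 60.9 CPM (3.0 ± 0.367, adjusted p = 6.09e-05), with replicate 1 the highest in both groups.

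**Figure D2:**
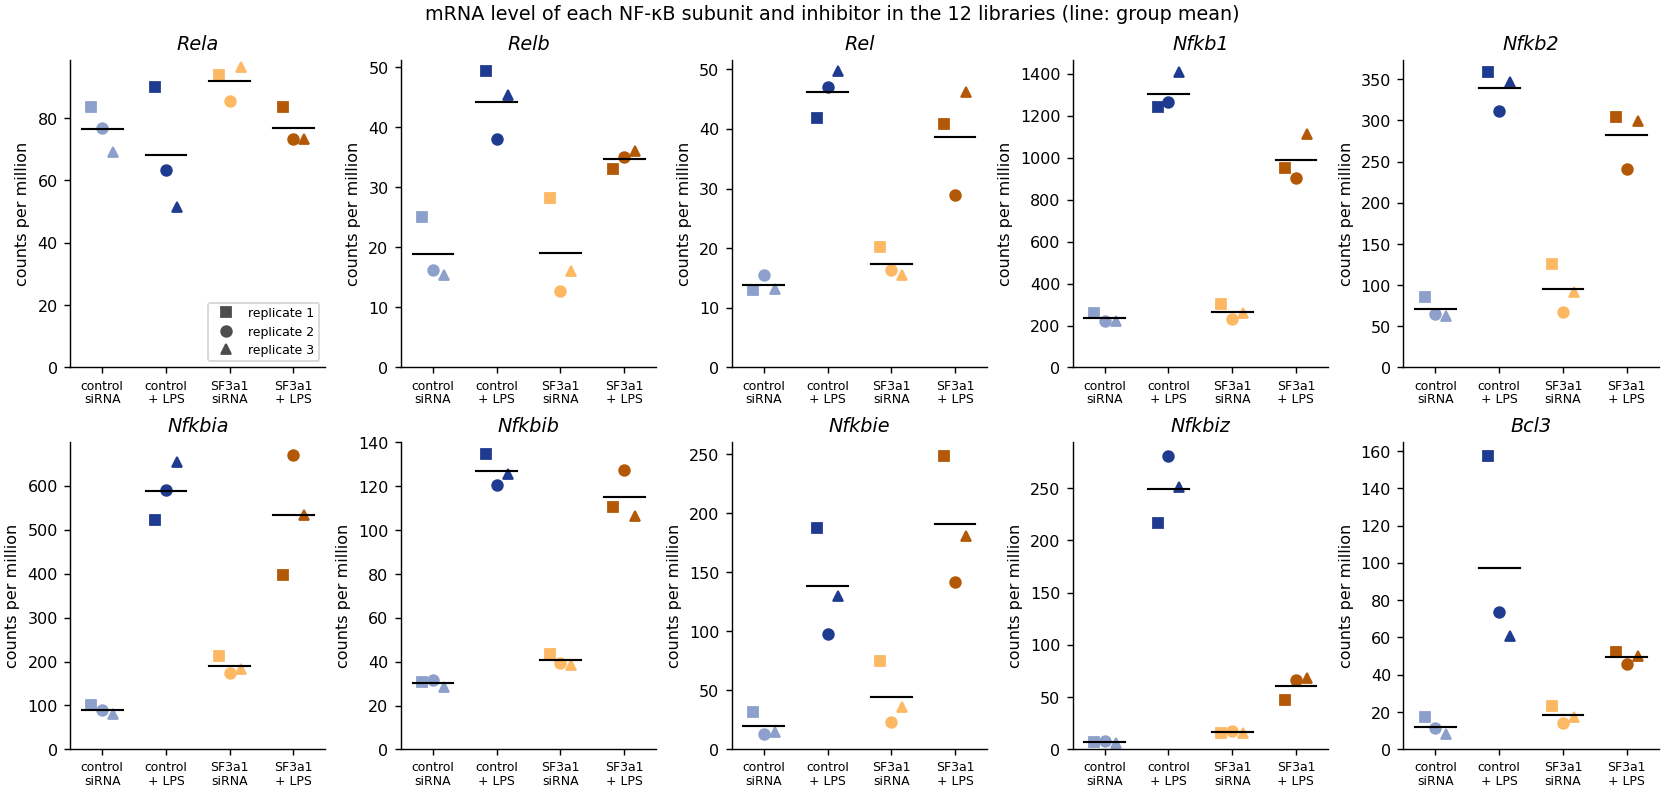
CPM of each member (linear axis from 0, own scale per panel) in the 12 libraries, with squares, circles and triangles for replicates 1, 2 and 3 and a line for the group mean. With control siRNA, the Rela libraries with and without LPS overlap. With LPS, the 3 Nfkbiz libraries with SF3a1 siRNA (47.5 to 68.2 CPM) lie below the 3 with control siRNA (216.1 to 280.3 CPM).

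Without LPS, SF3a1 siRNA raised 4 of the 10 members, beside 13.7% of all genes called higher and 20.1% called lower, and lowered none. The 4 were the classical inhibitor genes Nfkbia, Nfkbib and Nfkbie and the atypical Nfkbiz. Bcl3 and the 5 subunits were not called. The members' median log2 fold change was 0.42, beside -0.02 over all genes.

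Nfkbiz went from 7.10, 7.64 and 5.83 CPM to 15.9, 17.5 and 15.7 CPM, without overlap (log2 1.25 ± 0.176, adjusted p = 0.000306). Nfkbia went from 101.6, 89.0 and 81.4 CPM to 212.4, 174.8 and 182.3 CPM, again without overlap (1.07 ± 0.186, adjusted p = 0.00122). Nfkbib went to 43.7, 39.5 and 38.6 CPM, a smaller step (0.42 ± 0.125, adjusted p = 0.0247) that was no longer called with no filter on low counts (adjusted p = 0.201).

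Nfkbie went to 75.1, 23.3 and 35.8 CPM, a group that overlapped the control libraries, with replicate 1 high in both (1.17 ± 0.438, adjusted p = 0.0669). Within replicate numbers the log2 ratio was 1.24, 0.85 and 1.28. The call was lost without replicate 1 of SF3a1 siRNA without LPS (log2 0.57, adjusted p = 0.35) or without replicate 2 or 3 of control siRNA without LPS (adjusted p = 0.177 and 0.167), and with the replicate number as a block it was called at an adjusted p of 0.000143.

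Of the 6 members not called, Bcl3 lay at 23.5, 14.4 and 17.4 CPM (0.60 ± 0.349, adjusted p = 0.239) and Nfkb2 at 125.5, 67.8 and 91.7 CPM (0.42 ± 0.207, adjusted p = 0.158). With the replicate block both were called higher, Bcl3 at an adjusted p of 0.0351 and Nfkb2 at 0.033. Without replicate 1 of control siRNA without LPS, Bcl3 was at 1.04 (adjusted p = 0.062) and Nfkb2 at 0.68 (adjusted p = 0.0478). Nfkb2 was also called without replicate 2 of SF3a1 siRNA without LPS (0.63, adjusted p = 0.0419). Bcl3 was also called with no filter on low counts (0.57, adjusted p = 0.0713), without replicate 1 of control siRNA with LPS (0.60, adjusted p = 0.099) and without all replicate 1 libraries (0.72, adjusted p = 0.0161). Rel (0.33 ± 0.187), Rela (0.26 ± 0.181), Nfkb1 (0.17 ± 0.141) and Relb (0.01 ± 0.267) were not called in either fit. The Rel libraries lay at 20.2, 16.4 and 15.5 CPM and those of Rela at 93.7, 85.5 and 96.3 CPM. Those of Nfkb1 were 300.7, 231.8 and 260.3 CPM, and those of Relb 28.2, 12.8 and 16.1 CPM. Although not called, the Rela libraries did not overlap those with control siRNA, and the Rel libraries were separated only narrowly.

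With LPS, SF3a1 siRNA lowered 3 members and raised none, beside 20.4% of all genes called lower and 18.4% called higher. A share of 3 in 10 is close to that background. The 3 were Nfkbiz, Bcl3 and Nfkb1. The members' median log2 fold change was -0.26, beside -0.04 over all genes.

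Nfkbiz reached 47.5, 66.4 and 68.2 CPM with SF3a1 siRNA against 216.1, 280.3 and 251.4 CPM with control siRNA. This was 24.3% of the control level (log2 -2.04 ± 0.173, adjusted p = 1.26e-05), and the call held without any single library. Within replicate numbers the log2 ratio was -2.19, -2.08 and -1.88.

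Bcl3 reached 52.0, 45.7 and 50.3 CPM against 157.3, 73.9 and 60.9 CPM, without overlap (-0.98 ± 0.342, adjusted p = 0.0452). The size rested on replicate 1 of control siRNA with LPS: without it the log2 fold change was -0.45 (adjusted p = 0.244). The call was also lost without replicate 2 or 3 of SF3a1 siRNA with LPS (adjusted p = 0.112 and 0.105).

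Nfkb1 reached 952.2, 901.6 and 1113.7 CPM against 1243.9, 1267.6 and 1406.5 CPM (-0.40 ± 0.141, adjusted p = 0.0475). The groups did not overlap. The call was lost without replicate 3 of control siRNA with LPS (adjusted p = 0.137), without replicate 1 or 2 of SF3a1 siRNA with LPS (adjusted p = 0.118 and 0.129), and with no filter on low counts (adjusted p = 0.19).

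The classical inhibitors were not called with LPS. Nfkbia lay at 396.1, 670.2 and 534.1 CPM (-0.14 ± 0.184, adjusted p = 0.611) and Nfkbib at 110.7, 127.5 and 106.5 CPM (-0.14 ± 0.123, adjusted p = 0.419), and both overlapped the control libraries. Nfkbie lay at 248.7, 142.2 and 181.1 CPM (0.46 ± 0.428, adjusted p = 0.465) and was called higher with the replicate block (0.48, adjusted p = 0.0242).

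The other subunits were not called either. Relb lay at 33.1, 35.1 and 36.0 CPM (-0.35 ± 0.265), Nfkb2 at 304.7, 241.4 and 299.2 CPM (-0.27 ± 0.206), and Rel at 40.8, 28.9 and 46.2 CPM (-0.26 ± 0.184). The Relb and Nfkb2 libraries did not overlap those with control siRNA, so a lack of overlap was not limited to called genes. Rela lay at 83.6, 73.1 and 73.3 CPM (0.17 ± 0.181, adjusted p = 0.539) and was called higher without replicate 1 of control siRNA with LPS (0.42, adjusted p = 0.0506). With all 4 replicate 1 libraries left out, 5 members were called, in a setting that called 45.1% of all genes: Nfkbiz, Bcl3 (-0.49, adjusted p = 0.0548) and Nfkb1 lower, and Nfkbie (0.50, adjusted p = 0.086) and Rela (0.35, adjusted p = 0.0874) higher.

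**Figure D3:**
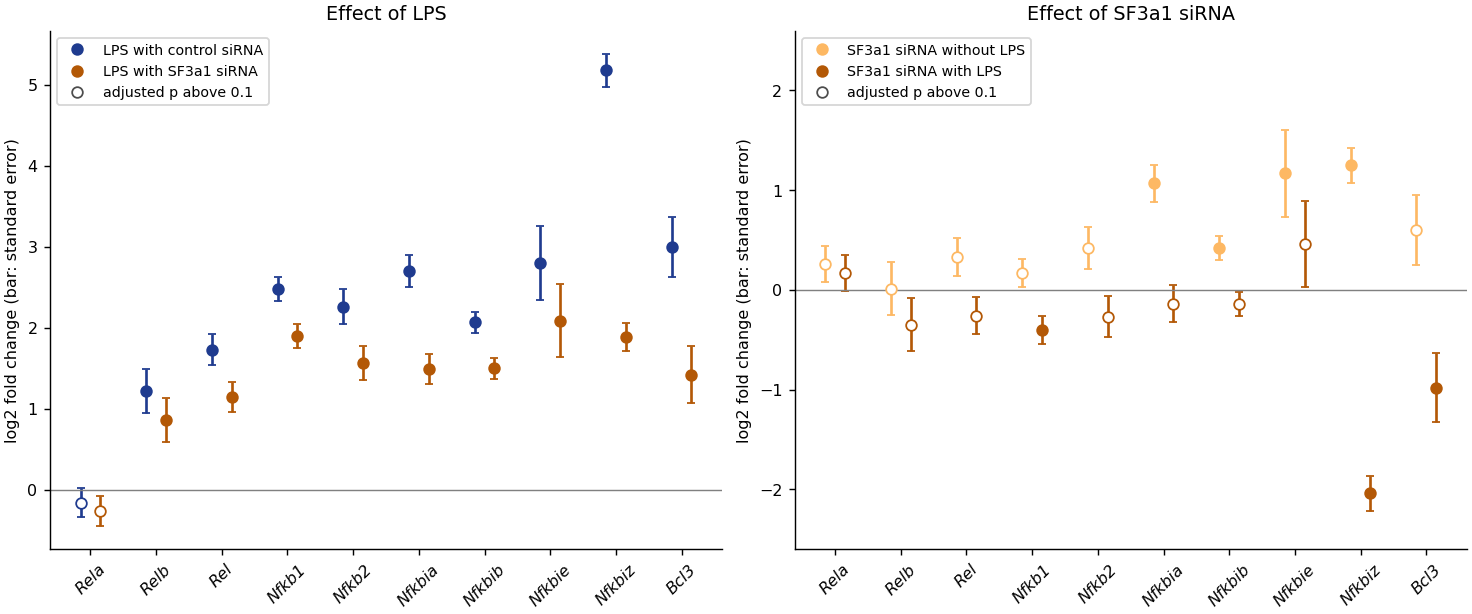
Log2 fold change with its standard error for each member, LPS effects on the left and SF3a1 siRNA effects on the right; open points have an adjusted p above 0.1. On the right, the 4 called points without LPS lie above 0 and the 3 called points with LPS lie below 0.

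In cells with SF3a1 siRNA, LPS again raised 9 members and not Rela (-0.26 ± 0.181, adjusted p = 0.518), where 6.60% of all genes were called higher. The members' median log2 fold change was 1.5, beside 0.01 over all genes. Nfkbiz rose 3.71-fold (1.89 ± 0.175, adjusted p = 1.77e-05), Nfkb1 3.74-fold and Nfkbie 4.25-fold. Relb was the weakest of the 9 (0.86 ± 0.268, adjusted p = 0.0763); its call was lost with RLE size factors (adjusted p = 0.103) and without any 1 of 7 libraries, with adjusted p between 0.109 and 0.252. Bcl3 (1.42 ± 0.350, adjusted p = 0.0265) lost its call without replicate 2 of SF3a1 siRNA without LPS (adjusted p = 0.116).

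The difference between the LPS responses was tested as an interaction. Of the 10 members 2 were called, both lower, where 1.94% of all genes were called lower and 3.47% in either direction. For Nfkbiz the SF3a1 siRNA effect with LPS minus that without LPS was -3.29 ± 0.246 on the log2 scale (adjusted p = 0.000127), with -3.35, -3.27 and -3.31 within replicate numbers. For Nfkbia the difference was -1.21 ± 0.261 (adjusted p = 0.0348), with -1.46, -0.79 and -1.46 within replicate numbers. Its libraries were raised by SF3a1 siRNA without LPS and overlapped the control libraries with LPS.

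The other 8 members had estimates between -1.58 (Bcl3) and -0.10 (Rela) that were not called. With the replicate block, which called 11.7% of all genes, 4 more were called: Bcl3 (adjusted p = 0.00989), Nfkbib (0.045), Nfkb2 (0.0515) and Nfkb1 (0.0547). DESeq2, which called 6.24% of all genes, also called Nfkbib (adjusted p = 0.0327), Bcl3 (0.037) and Nfkb1 (0.0974). Bcl3 was called as well with no filter on low counts (-1.56, adjusted p = 0.000181), without all replicate 1 libraries (-1.21, adjusted p = 0.0287), without replicate 1 of control siRNA without LPS (-1.99, adjusted p = 0.0762) and without replicate 3 of control siRNA with LPS (-1.83, adjusted p = 0.0926). Nfkbib was called without replicate 2 of SF3a1 siRNA with LPS (adjusted p = 0.0942). The LPS comparisons share the interaction's libraries, so these estimates are not separate from the values above.

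At the exon level, few bins of the members were called as changed relative to their gene. Counts per bin were analysed in 11 libraries, which leave control siRNA with LPS its replicates 1 and 2 (replicate 3 was not used here for bins). The test, edgeR's diffSpliceDGE, asks whether a bin changed relative to its gene over 153624 bins. Of the 168 member bins 149 passed the filter, and 1 was called for LPS with control siRNA, 1 for SF3a1 siRNA without LPS and 1 for SF3a1 siRNA with LPS. Over all bins, 0.0801%, 0.626% and 0.492% were called in these comparisons. No member bin was called for LPS with SF3a1 siRNA or in the interaction (0.0254% and 0.00% of all bins by edgeR), where 1 and 3 member bins had an unadjusted p below 0.05, and limma's diffSplice called none of them.

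The bin called in 2 comparisons was bin 15 of Nfkbiz, placed at chr16:55824666-55825545 (880 nt, mm10). In the GENCODE annotation it is the last exon of a noncoding Nfkbiz transcript, within the intron between the second exon and the exon that holds the start codon of a protein-coding transcript. It held 3.10%, 3.23% and 5.06% of Nfkbiz bin counts with control siRNA without LPS (13, 7 and 8 counts), and 0.141% and 0.486% with LPS (15 and 21 counts). Relative to its gene the bin fell by 3.59 on the log2 scale (adjusted p = 0.0232). Its own level was 0.22, 0.253 and 0.271 CPM of all bin counts without LPS and 0.256 and 1.2 CPM with LPS, while the gene rose. With SF3a1 siRNA it held 1.6%, 2.66% and 2.42% without LPS (9, 10 and 6 counts).

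With SF3a1 siRNA and LPS the shares of bin 15 were 0.70%, 3.69% and 2.89% (14, 50 and 51 counts), above both control libraries with LPS (log2 3.09 relative to the gene, adjusted p = 0.014). The bin's own level in these libraries was 0.272, 2.16 and 1.72 CPM, overlapping that with control siRNA and LPS. The libraries of replicate 1 were the low ones in both groups. The call was lost without replicate 1 of control siRNA with LPS (adjusted p = 0.961), or without replicate 2 or 3 of SF3a1 siRNA with LPS (0.228 and 0.124). The LPS call was lost without replicate 1 of control siRNA with LPS (adjusted p = 1.0) or replicate 3 of control siRNA without LPS (0.185). Leaving out either library of control siRNA with LPS leaves 1 in that group at the exon level, which is then assumed to vary like the other groups.

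The neighbouring 5′ bins of Nfkbiz were not called in the fit of all 11 libraries. Bin 17, the greater part of the first exon (chr16:55838461-55838854), held 0.704% and 1.55% of counts with control siRNA and LPS, and 0.90%, 4.87% and 4.02% with SF3a1 siRNA and LPS (log2 1.61, adjusted p = 0.434). Its share was lowest in replicate 1 in each of the 4 groups. Without all replicate 1 libraries, bin 17 (1.52, adjusted p = 0.0999) and bin 17 of Nfkb2 (-1.17, adjusted p = 0.0389) were called beside bin 15 of Nfkbiz (2.76, adjusted p = 0.00187), but control siRNA with LPS then had 1 library and the spread came from the other 3 groups. Bin 17 of Nfkbiz was also called without replicate 1 of SF3a1 siRNA with LPS (1.97, adjusted p = 0.0751). Bin 17 of Relb, which had 35 counts in replicate 1 of control siRNA with LPS and 0 in each of the other 10 libraries, did not pass the filter with all libraries, and its call without replicate 2 of that group rests on that library alone.

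**Figure D4:**
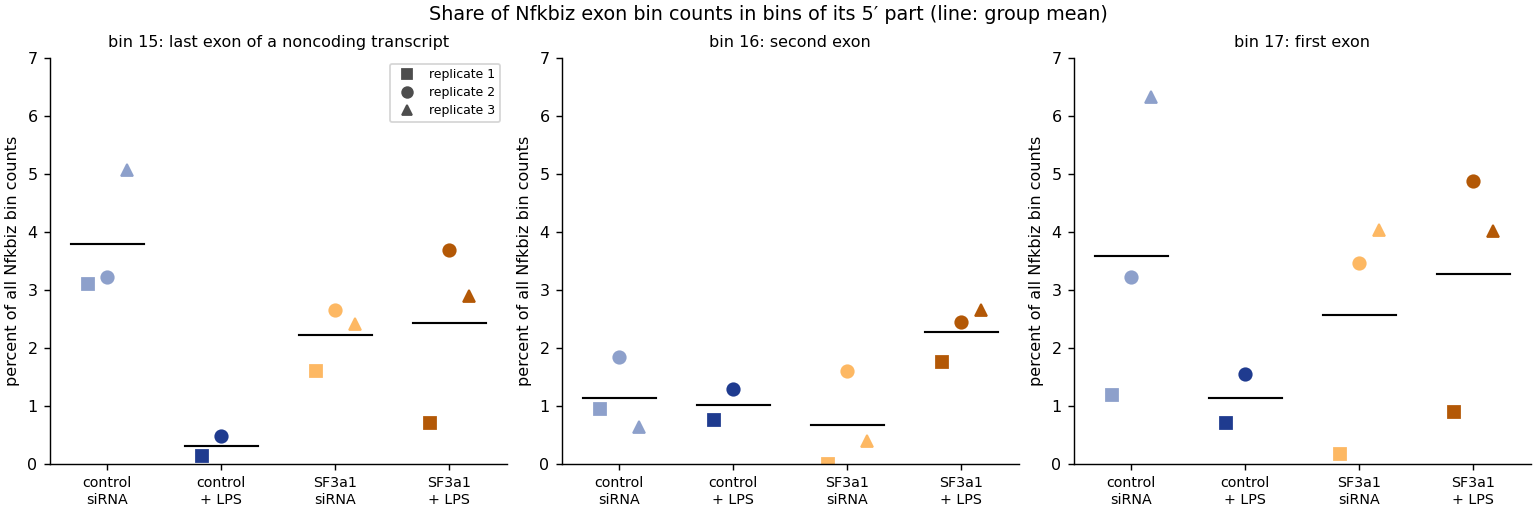
Percent of all Nfkbiz bin counts in bins 15, 16 and 17, for the 11 libraries with exon-level data; lines are group means and symbols give the replicate number. In bin 15 both control libraries with LPS lie below 0.5% and the SF3a1 libraries with LPS lie at 0.70%, 2.89% and 3.69%.

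Bin 22 of Nfkb1 was called for SF3a1 siRNA without LPS, where it rose from 7, 5 and 3 counts (0.0408%, 0.0708% and 0.0385% of the gene's bin counts) to 23, 13 and 10 counts (0.179%, 0.215% and 0.195%). The groups did not overlap, but the call lay at the threshold (log2 1.97, adjusted p = 0.0998). It was lost with limma (0.383), with bins of at least 10 counts (0.116), without all replicate 1 libraries (0.205) and without any 1 of 8 libraries, with adjusted p between 0.116 and 0.543. With the replicate block it was called (adjusted p = 0.0138), and so was bin 21 (adjusted p = 0.0347). The bins of Nfkb1, Nfkb2 and Bcl3 carry no coordinates here, because the rebuilt annotation gave another number of bins for them.

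A 9-nt cassette exon of Relb (bin 18, chr7:19622926-19622934) was looked up by position. It had 15, 10 and 12 counts with control siRNA and 23, 2 and 0 counts with SF3a1 siRNA, or a mean share of 1.67% ± 0.759 against 0.821% ± 0.939 of Relb bin counts (SD, n = 3). A count of 0 allows up to 3 counts. With LPS it had 40 and 20 counts against 17, 9 and 11 counts. Neither comparison was called (log2 -0.26 and -0.95, adjusted p = 1.0 in both). Introns of Nfkb2 were not analysed here, since its bins have no known position.

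Beyond these bins, the smallest p for SF3a1 siRNA was found in bin 1 of Nfkbib (-2.51, adjusted p = 0.249) and bin 11 of Relb (2.30, adjusted p = 0.439), both without LPS. In bin 11 of Relb, a stretch of 966 nt within introns of other transcripts, counts were 7, 1 and 4 with control siRNA and 20, 13 and 6 with SF3a1 siRNA. As shares of Relb bin counts these were 0.391%, 0.186% and 0.774% against 1.6%, 4.01% and 2.02%, without overlap. With LPS the shares were 0.52% and 0.435% with control siRNA and 2.18%, 1.93% and 1.76% with SF3a1 siRNA. That difference was not called either (log2 1.90, adjusted p = 0.988). Located bins that lie within an annotated intron were present in Relb, Nfkbib and Nfkbiz. Their summed share in Nfkbiz with LPS was 4.27% ± 0.526 (n = 3) with SF3a1 siRNA and 2.65% ± 0.203 (n = 2) with control siRNA, without overlap. This sum holds bin 15: without it the shares were 3.05%, 1.11% and 1.36% with SF3a1 siRNA and 2.65% and 2.02% with control siRNA, which overlapped. Exact two-sided permutation tests of the full sums gave p = 0.2 there, the smallest that 3 against 2 libraries allow, and between 0.4 and 1.0 in the other 5 comparisons (adjusted p = 0.84 or 1.0 over the 6). In those 5 the libraries overlapped. The mean share with SF3a1 siRNA was higher in Relb without LPS (6.35% against 5.04%) and in Nfkbib without LPS (3.14% against 2.55%) and with LPS (2.6% against 1.98%). It was lower in Relb with LPS (5.28% against 6.74%) and alike in Nfkbiz without LPS (5.46% against 5.47%).

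Other regulators and the kinase module give the setting of these changes. A list of 11 further inhibitors and modifiers had 5 members called higher and 1 lower for LPS with control siRNA (13.8% of all genes were called higher and 18.3% lower). Tnfaip3, a ubiquitin-editing inhibitor of the pathway, rose by 3.99 ± 0.320 on the log2 scale, and Tnip1, which binds its product, by 2.36 ± 0.239. Nfkbid, another nuclear IκB gene, rose by 1.81 ± 0.172, Nfkbil1 by 1.19 ± 0.178 and Tnip2 by 0.64 ± 0.164. Without LPS, SF3a1 siRNA raised 3 of the 11: Tnip1 (0.66 ± 0.229), Otud7b, a deubiquitinase (0.65 ± 0.206), and Nfkbid (0.63 ± 0.168). With LPS it raised Otud7b (0.77 ± 0.207) and lowered Tnfaip3 (-0.68 ± 0.283, adjusted p = 0.0892). These are 27.3% and 18.2% of the list, below the 33.8% and 38.8% of all genes called in either direction. The medians for SF3a1 siRNA were 0.20 without and -0.13 with LPS.

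With LPS, Nfkbid lay at 159.0, 192.5 and 167.1 CPM with SF3a1 siRNA and at 148.4, 164.9 and 154.2 CPM with control siRNA, and the difference was not called (0.15 ± 0.167, adjusted p = 0.552). The kinase module was a list of 17 genes for the IκB kinase, its upstream transducers and the ubiquitin ligase that marks IκB proteins. The ligase parts in it were Btrc, Fbxw11, Cul1 and Skp1. In these 17 genes, LPS with control siRNA called 4 higher and 2 lower (35.3%, beside 32.1% of all genes). Birc3, another ubiquitin ligase, rose most (1.55 ± 0.191). SF3a1 siRNA called 4 higher and 3 lower without LPS (41.2%, beside 33.8%), and 6 higher and 4 lower with LPS (58.8%, beside 38.8%). Map3k14, the kinase NIK of the noncanonical pathway, lay at 91.3 ± 11.3 CPM with SF3a1 siRNA and LPS against 36.0 ± 5.85 CPM with control siRNA (SD, n = 3; log2 1.34 ± 0.152, adjusted p = 6.97e-05).

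Ikbkb, the catalytic IκB kinase subunit β, fell to 53.6, 48.9 and 60.6 CPM from 98.6, 117.6 and 107.5 CPM (-0.99 ± 0.138, adjusted p = 0.000246). It also fell without LPS (-0.67 ± 0.138, adjusted p = 0.00344), while Ikbkg, the regulatory subunit NEMO, rose without LPS (0.88 ± 0.157, adjusted p = 0.00133) and with LPS (0.44 ± 0.156, adjusted p = 0.0477). Cul1, the scaffold of the ubiquitin ligase that marks IκB proteins, fell without LPS (-0.98 ± 0.147) and with LPS (-0.76 ± 0.147). Birc2 also fell without LPS (-0.83 ± 0.256) and with LPS (-0.88 ± 0.255). Birc3 was lowered with LPS (-0.78 ± 0.188) and not called without LPS (0.04 ± 0.188). Of the 28 regulator and kinase-module genes, edgeR called 0 in the interaction, beside 3.47% of all genes, with 4 at an unadjusted p below 0.05. DESeq2 called 2 of them, Birc3 and Map3k14, beside 6.24% of all genes. Both counts come from fits without the replicate block, which called 11.7% of all genes in the interaction. No blocked count is given for these 28 genes.

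Of 40 known NF-κB target genes, 36 passed the filter on low counts, but 12 of them (Il6, Il1b, Nos2, Saa3, Cxcl2, Ccl5 and Mmp9 among them) averaged below 1 CPM with control siRNA without LPS, so that some passed only through the libraries where they were high. The counts below cover the 24 others, a restriction made after the values were seen, and are a description. LPS with control siRNA raised 21 of the 24 and lowered 1, beside 13.8% of all genes called higher and 18.3% called lower. Without LPS, SF3a1 siRNA raised 14 of the 24 and lowered 1, beside 13.7% called higher and 20.1% called lower of all genes, with a median of 0.98 beside -0.02. Ptgs2, the gene of cyclooxygenase 2, rose from 26.9, 35.8 and 26.6 CPM to 318.2, 215.8 and 275.2 CPM (3.18 ± 0.197, adjusted p = 4.55e-06), and Myc, a growth regulator, from 10.7, 14.1 and 9.49 CPM to 82.3, 56.3 and 86.0 CPM (2.71 ± 0.270). The chemokine gene Ccl2 also rose (2.83 ± 0.431). Outside the 24, the matrix protease gene Mmp9 (3.34 ± 0.691) and the chemokine gene Cxcl2 (2.63 ± 0.689) were called at low levels. Mmp9 lay at 0.229, 0.313 and 0.298 CPM against 3.64, 2.12 and 2.53 CPM. Cxcl2 lay at 0.642, 0.402 and 0.681 CPM against 7.76, 0.724 and 1.86 CPM, with replicate 1 far above the other replicates.

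With LPS, SF3a1 siRNA lowered 8 of the 24 targets and raised 4, beside 20.4% of all genes called lower and 18.4% called higher, with a median of -0.35 beside -0.04. The cytokine gene Il6, which is not among the 24, lay at 1.27, 1.33 and 2.16 CPM with SF3a1 siRNA against 24.6, 11 and 27.4 CPM with control siRNA (-3.73 ± 0.422, adjusted p = 0.000321), and no Il6 count was seen in any library without LPS. The chemokine gene Cxcl10 (-3.60 ± 0.507), the costimulatory receptor gene Cd40 (-3.13 ± 0.378), Nos2, the inducible nitric oxide synthase (-2.96 ± 0.226), and the acute-phase gene Saa3 (-2.79 ± 0.669) fell by the next largest steps among the targets that averaged at least 5 CPM over all libraries, and Nos2 and Saa3 are not among the 24. In the interaction 9 of the 24 targets were called, all lower, beside 1.94% of all genes called lower, and the chemokine gene Ccl4 had the largest estimate of the 9 (-3.30 ± 0.586, adjusted p = 0.015).

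**Figure D5:**
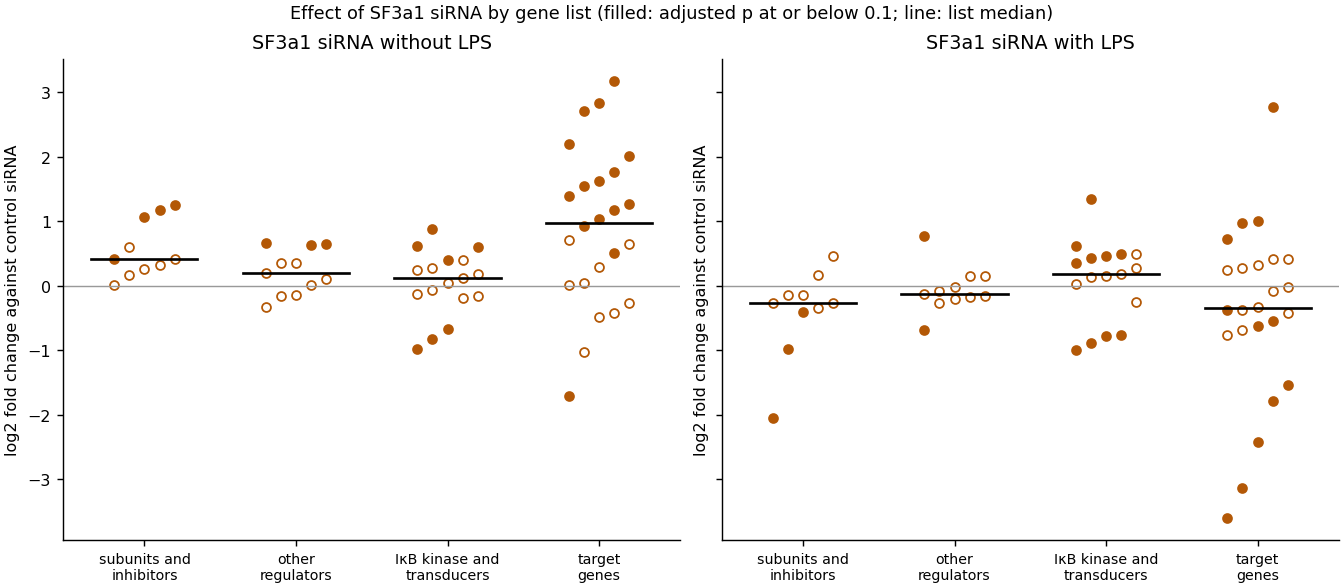
Log2 fold change for SF3a1 siRNA against control siRNA without LPS (left) and with LPS (right), by gene list. The lists are the 10 members, 11 other regulators, 17 kinase, transducer and ubiquitin ligase genes, and 24 targets. These targets averaged 1 CPM or more in control siRNA without LPS. Filled points were called and lines are list medians. The target median lies at 0.98 on the left and -0.35 on the right, and the member median at 0.42 and -0.26.

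As a description of pattern, each member was set beside the 10611 other genes averaging at least 5 CPM, by the root mean square difference of the 4 centred group means of log2 CPM (12 libraries). Nearest to Nfkbiz was Scimp (0.128), and nearest to Bcl3 was Kdm6b (0.0732). The nearest gene to Nfkbia was Errfi1 (0.0637), to Nfkbib Grap (0.0606) and to Nfkbie Ccn4 (0.148). For the subunits the nearest genes were Malt1 for Nfkb1 (0.118), Igf2bp2 for Nfkb2 (0.0144), Jkamp for Rela (0.016), Denr for Relb (0.0447) and Slc4a7 for Rel (0.0591).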

How the data were processed

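The authors aligned Ion Proton reads of polyadenylated RNA with GSNAP to mm10 and counted them with HTSeq 0.5.4p, per the submitters' processing notes in the labels. The deposited files used here hold raw counts per gene (1 table of 12 libraries) and raw counts per exon bin (11 libraries). The gene model was the Ensembl annotation taken from the UCSC Genome Browser, and genes were counted in intersection-nonempty mode. The strand setting is not given in the sources used here. Nfkb2, Nfkbib and Bcl3 overlap genes of the opposite strand (Psd, Sirt2, Ccer2 and others) and Nfkb1 overlaps Gm43430, whose reads may not be told apart.

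Gene counts were scaled by TMM and tested with edgeR 4.0.16 (filterByExpr, glmQLFit, glmQLFTest, all 12 libraries, no block). Bins were tested with diffSpliceDGE. Scripts were tested on simulated data. Bin positions come from bins rebuilt on GENCODE transcripts, which gave the deposited number of bins in 85.0% of 37223 units; agreement in number is the only check. Deviations from group means correlated between 0.143 and 0.600 in all 18 same-numbered pairs of libraries in different groups, so the replicate numbers were taken to pair the samples. This pairing comes from the data, not from the labels. Pairs of replicate 2 with replicate 3 also correlated positively, at 0.0401 to 0.345 (12 pairs). That range overlaps the 0.143 to 0.458 of same-numbered pairs of replicate 2 or 3. These values therefore cannot tell a pairing of replicates 2 and 3 from replicate 1 standing apart. Intervals and limits for counts of 0 cover counting error only.

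All 10 members were named. Genes of each further list were picked from at most 5 called genes per comparison, those with the largest change and at least 5 CPM. Not all of these are given. Nfkbid and Ikbkg with LPS were added after their values were seen. The 40 targets include Bcl2a1a, not analysed here, and Cxcl1, Vcam1 and Il12b, which were below the count filter. The members and lists were chosen with earlier results of these data known. Alternatives were RLE size factors, DESeq2 1.42.0, limma 3.58.1, other filters, the replicate block and leaving out libraries; leaving out replicate 1 of every group was added after seeing the data.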

Additional observations from a re-analysis of the deposited data

Results flagged for a closer look

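For 2 members the effect of SF3a1 siRNA differed between cells with and without LPS by the test of the difference itself (edgeR's interaction term over all genes). For Nfkbiz the difference was -3.29 on the log2 scale (adjusted p = 0.000127), negative in 3 of 3 replicate numbers. For Nfkbia it was -1.21 (adjusted p = 0.0348), also negative in 3 of 3. The sign alone does not set these genes apart. Nfkb1, Nfkb2, Rel, Nfkbib, Nfkbie and Bcl3 were also negative in 3 of 3 and were not called in this fit.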

How the results depend on the processing

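Of 850 repeats of the members' log2 fold changes under other settings, 794 kept their direction and side of the threshold, 20 lost the call, 25 gained it and 11 changed sign. The sign changes were in values that were not called. For Relb with SF3a1 siRNA without LPS the value was -0.01 with no filter on low counts and -0.01 with the replicate block. With libraries left out it ran from -0.39 to 0.37 (-0.14 without replicate 1 of all groups). The same ranges were -0.42 to 0.0 for Rela with LPS and control siRNA and -0.34 to 0.03 for Nfkbia with SF3a1 siRNA and LPS. In the interaction they were -0.68 to 0.04 for Relb and -0.27 to 0.16 for Rela (0.04 without replicate 1 of all groups).

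The number of members called in the interaction was 2, against 5 with DESeq2 and 6 with the replicate block, where 3.47%, 6.24% and 11.7% of all genes were called. With LPS, for SF3a1 siRNA, it ran from 1 to 5 with libraries left out, the 5 being without replicate 1 of all groups (45.1% of all genes called). Counts in the other comparisons stayed within 1.5 times under RLE size factors, DESeq2 and no filter; for SF3a1 siRNA the block gave 6 in cells without LPS and 4 in cells with it, where it called 47.1% and 50.9% of all genes. The replicate block changed no call of a member gene other than those given with the results above. The number of member bins called ran from 0 to 1 for LPS with control siRNA when libraries were left out. For SF3a1 siRNA without LPS it was 0 with limma, 0 with bins of at least 10 counts and 2 with the replicate block, and 0 to 1 with libraries left out. For SF3a1 siRNA with LPS it ran from 0 to 3. The cause of these changes was not tested.

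With 3 libraries a group (2 at the exon level in control siRNA with LPS), the number of libraries limits the precision. The alternative restricted to retained-intron bins gave no value, since no located member bin is of that class.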
